A study of Mus musculus with 8 samples.

Results

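Loss of Myc was examined in mouse B cells that already lacked Max. The comparison set 2 libraries whose titles name the combined knock-out of Myc and Max (DKO) against 2 whose titles name the Max knock-out (MAX_KO), so that Max deletion was common to both groups and the Myc genotype was the labelled difference. These were 4 of the 8 RNA-seq libraries of the study. Genes with a deposited log2 value of 0 or more in at least 2 of the 8 libraries were tested, which was 12489 of 15681. The other 4 libraries, 2 from heterozygous controls (HET) and 2 from the Myc knock-out (MYC_KO), gave the effect of Myc loss where Max was present and shared no library with the first comparison. All 4 groups were mature B lymphocytes sorted from spleens of animals 8 to 10 weeks old, cultured with lipopolysaccharide at 20 µg/ml and interleukin 4 at 20 ng/ml and harvested after 72 h. What the controls were heterozygous for, the Cre or other driver of the deletions and the strain of the mice were not given in the sources used here, and no label says whether 2 libraries of a group were made from different animals. The p-values therefore describe the spread between these libraries, which may be technical.

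The labels of one library in the comparison disagree. DKO replicate 1 carries the title KB32_DKO, as does its column of values, whereas its description and genotype fields call it a Myc knock-out. MYC_KO replicate 2, titled KB44_MYC_KO, is called a double knock-out there. Groups below follow the titles, and some of the results that rest on DKO replicate 1 are also given without it or with the groups of the descriptions.

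Myc is a basic helix-loop-helix leucine zipper protein that binds DNA at E-boxes as a dimer with Max and recruits cofactors that raise transcription of genes for ribosome production, nucleotide synthesis, glycolysis and cell division. Max also pairs with the repressors of the Mxd family, with Mnt and with Mga, and it can bind as a homodimer. In B cells, Myc is induced within hours of activation and is switched off by Blimp-1, the product of Prdm1, when cells become plasma cells. Whether Myc does anything in the absence of Max is the question that a comparison of DKO with MAX_KO addresses.

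The libraries held 14.88 to 17.91 M estimated reads, and the 4 libraries compared held 17.55 to 17.91 M. Levels are given in RPM (reads as RSEM estimates them, relative to the effective size of the library), with replicate 1 before replicate 2. Changes are on the log2 scale with their standard errors (SE) from limma, adjusted over all genes tested, and a gene was called at an adjusted p under 0.05. Cd79a and Cd79b, the signalling chains of the B cell receptor, were high in every library, with Cd79a at 878 to 1161 RPM. Cd3e, of the T cell receptor complex, was at 0.932 to 1.73 RPM in the 4 libraries compared, and Csf1r, a macrophage receptor, at 0 to 0.147 RPM. Summed levels of 18 T cell markers were 396 and 345 RPM in MAX_KO and 324 and 305 RPM in DKO. Of these sums, Thy1 alone gave 228 and 153 RPM in MAX_KO and 109 and 137 RPM in DKO. Thy1 was at 323 and 275 RPM in HET, where Cd3e was at 0 and 0.243 RPM. Summed levels of the 10 myeloid markers in the table were 22.5 and 22.8 RPM in MAX_KO and 28.3 and 20.3 RPM in DKO. Of these sums, the macrophage marker Adgre1 gave 10.1 and 7.71 RPM in MAX_KO and 15.4 and 5.43 RPM in DKO. The 11 NK cell markers in the table summed to 106 and 157 RPM in MAX_KO and to 133 and 192 RPM in DKO. Of this, Ncr1, an NK receptor, gave 0.0556 to 0.165 RPM. Gzmb gave 25.2 and 53.8 RPM in MAX_KO and 53.8 and 74.6 RPM in DKO, and Gzma gave 12.8 and 28.7 RPM in MAX_KO and 25.6 and 34.9 RPM in DKO. None of these 3 marker lists had a member called in DKO against MAX_KO. In MYC_KO against HET, 15 of 18 T cell markers rose and 1 fell, and 6 of 7 NK cell markers rose. Of 7 myeloid markers 4 rose and 2 fell, where 24.0% of all genes rose and 21.4% fell. The NK cell markers summed to 45.3 and 42 RPM in HET and to 292 and 183 RPM in MYC_KO. Cd3e was at 3.33 and 1.92 RPM in MYC_KO. Whether the share of other cells differed between those groups was not tested.

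Myc transcripts were at 192 and 176 RPM in MAX_KO and at 38.7 and 55.3 RPM in DKO. The groups did not overlap, which held for 31.6% of the genes tested, and the MAX_KO libraries were the highest of all 8, since HET had 111 and 116 RPM and MYC_KO had 48.3 and 55.7 RPM. Myc fell by 1.99 on the log2 scale in DKO against MAX_KO (SE 0.16, 95% interval -2.36 to -1.62, 3.97-fold, adjusted p = 0.00528 by limma), and it also fell in MYC_KO against HET (log2 change -1.13, adjusted p = 0.000855). The fall was larger without Max, with a difference of the 2 changes of -0.86 (adjusted p = 0.0259). Without DKO replicate 1 the log2 change of Myc was -1.73 (adjusted p = 0.00899), and with the groups of the descriptions it was also -1.73 (adjusted p = 0.00138). Which part of the gene was deleted is not given in the sources used here, so that the remaining reads do not measure how many cells kept Myc.

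Max transcripts were at 16.4 and 15.5 RPM in MAX_KO and at 28.6 and 31.2 RPM in DKO, against 55.0 and 54.5 RPM in HET and 70.4 and 59.8 RPM in MYC_KO. Both DKO libraries lay above both MAX_KO libraries, as for 16.2% of all genes tested, and below all HET and MYC_KO libraries. On its Max level, DKO replicate 1, the library described as a Myc knock-out, lay beside DKO replicate 2, and MYC_KO replicate 2, described as a double knock-out, lay beside MYC_KO replicate 1. The groups of the descriptions put MYC_KO replicate 2, at 59.8 RPM of Max, into DKO. Results with those groups therefore do not compare libraries that are all low in Max transcripts. The log2 change of Max in DKO against MAX_KO was 0.91 (SE 0.117, 95% interval 0.64 to 1.18), with an adjusted p of 0.0968 by limma. In a fit that also carried a term for the series of the title numbers, described with the counts below, the adjusted p of Max was 0.0293. Whether less complete deletion of Max in the DKO libraries bears on the results below was not tested.

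**Figure D1:**
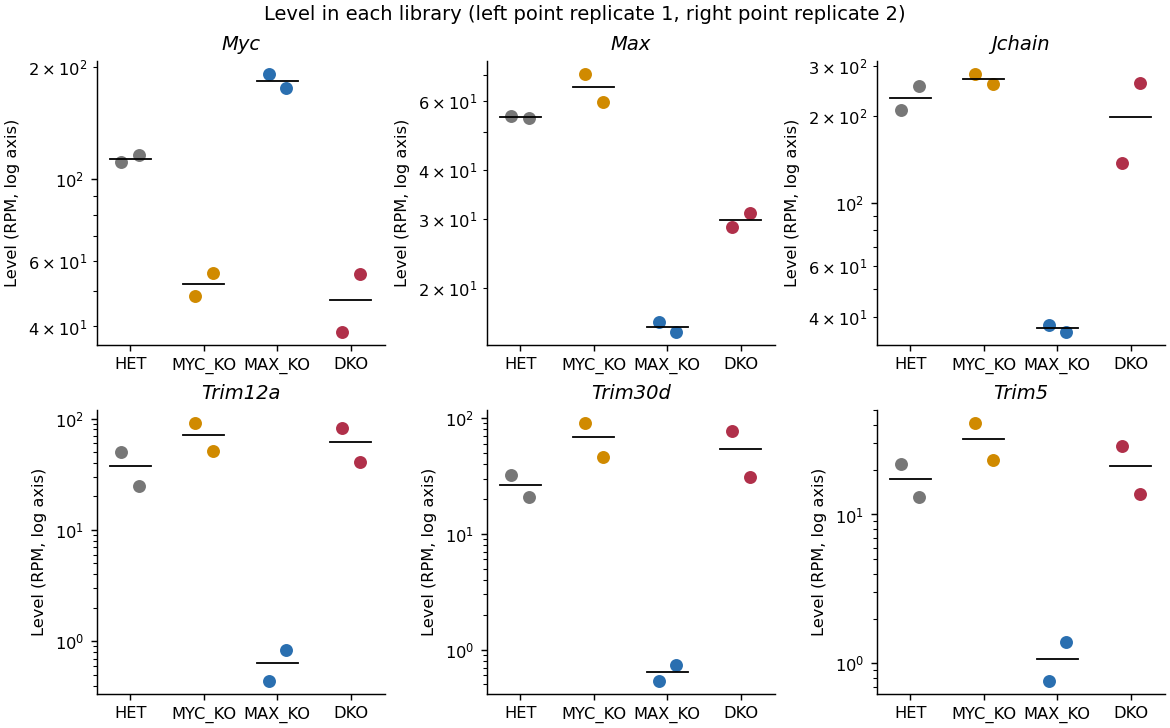
Levels of the 5 genes called between DKO and MAX_KO and of Max, in RPM on log axes, with 1 point for each library (replicate 1 on the left, replicate 2 on the right) and a line at the mean of a group. MAX_KO lies above every other group for Myc and below every other group for Jchain, Trim12a, Trim30d, Trim5 and Max.

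Of the 15 tested members of the Myc and Max network, Myc was the one called. Mxd4, which encodes a Max-binding repressor, was at 67.2 and 68.3 RPM in MAX_KO and at 51.7 and 53.5 RPM in DKO, a log2 change of -0.37 with an adjusted p of 0.712 by limma. Trrap, a scaffold of histone acetyltransferase complexes that Myc recruits, was at 193 RPM in each MAX_KO library and at 222 and 218 RPM in DKO (log2 change 0.19, adjusted p = 0.723 by limma). Mnt had 79.3 and 90.9 RPM in MAX_KO and 67.6 and 78.2 RPM in DKO, and Mga had 178 and 210 RPM in MAX_KO and 185 and 200 RPM in DKO. The groups overlapped for Mga and did not for Mxd4, Trrap and Mnt, where 16.2% of all genes tested had both DKO libraries above both MAX_KO libraries and 15.4% had them below. Mycl, the other Myc family gene tested, was low, with 3.06 and 2.68 RPM in MAX_KO and 1.34 and 2.30 RPM in DKO.

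Few genes were called when Myc was lost without Max. DKO differed from MAX_KO at 5 genes, 0.0400% of those tested, of which Trim12a, Trim30d, Trim5 and Jchain were higher (0.0320%) and Myc was lower (0.00801%). At an unadjusted p under 0.05, 755 genes differed (6.05%), 474 higher (3.80%) and 281 lower (2.25%). Myc loss with Max present changed 5671 genes (45.4%), of which 2994 rose (24.0%) and 2677 fell (21.4%). The median size of the log2 change over all genes tested was 0.11 without Max and 0.45 with Max, and 334 genes moved by at least 2-fold without Max, compared with 2504 with Max. The median SE of a change in DKO against MAX_KO was 0.160 and its 95% interval typically reached 0.366 to either side (median), both on the log2 scale. That interval is not adjusted over all genes, and a call asked for more. Max (log2 change 0.91, SE 0.117) and Eaf2 (1.12, SE 0.154) were not called. Changes of a typical gene well above 0.366 could thus go uncalled with these replicates.

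The count of called genes depended on how library numbers were treated. The titles fall into numbers in the 30s and the 40s, and each series holds 1 DKO and 1 MAX_KO library, while both HET libraries are in the 30s. The labels do not say what the numbers stand for. With the series as a term, 31 genes were called, 29 higher and 2 lower, which held the 5 genes above and, among others, Max, Prdm1, Sdc1, Bhlha15, Eaf2, Bcat1, Cpeb3, Lman1, Phgdh, Odc1 and Gvin1. With the groups of the descriptions 26 genes were called and without DKO replicate 1 there were 16. In a fit of the 4 libraries alone 0 genes were called by limma and 630 had an unadjusted p under 0.05.

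The 2 effects of Myc loss differed by direct test at 3406 genes (27.3%), with 1538 log2 changes higher without Max (12.3%) and 1868 lower (15.0%). Genes picked for their change in MYC_KO against HET were followed into DKO against MAX_KO, which shares no library with it. The 2994 genes that rose with Max present had a median log2 change of 0.78 there and of 0.02 without Max, and 121 of them (4.04%) were higher and 49 (1.64%) lower at an unadjusted p under 0.05. The 2677 genes that fell had a median of -0.79 with Max and of -0.03 without it, and 149 of them (5.57%) were lower and 108 (4.03%) higher at that threshold. Over the 12489 genes the 2 log2 changes had a Pearson correlation of 0.14 and a Spearman correlation of 0.13, as a description across genes, which are not independent replicates.

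**Figure D2:**
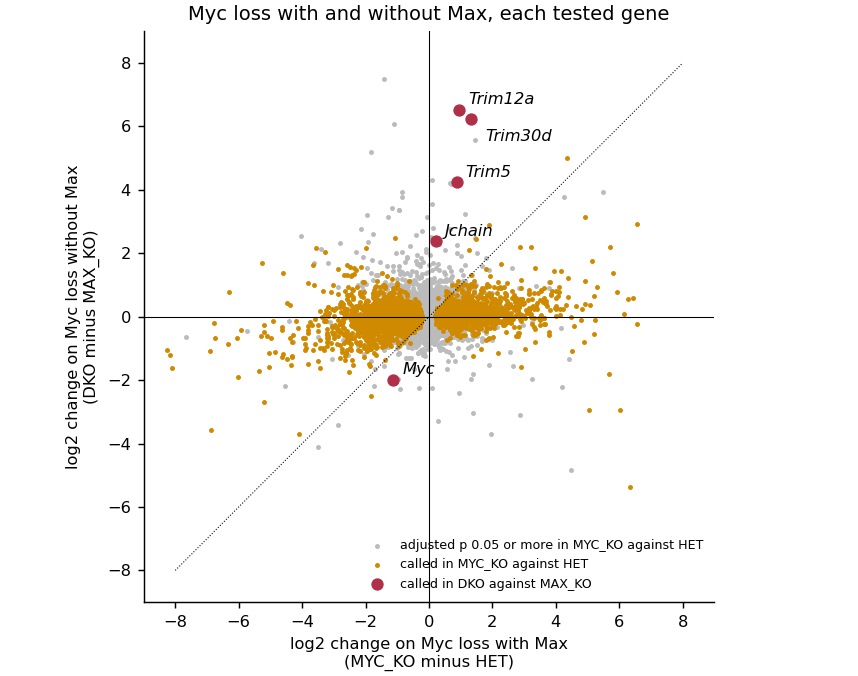
Each point is 1 of the 12489 genes tested, with its log2 change in MYC_KO against HET on the horizontal axis and in DKO against MAX_KO on the vertical axis, and the dotted line marks equal changes. Genes called with Max present spread along the horizontal axis, and the 5 genes called without Max are named.

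Of the 5 called genes, Trim12a, Trim30d and Trim5 lie in a cluster of tripartite motif genes on chromosome 7, which encode ubiquitin ligases of antiviral defence and related proteins. In the MAX_KO libraries these 3 genes were at 0.441 to 1.39 RPM. The promoters of Trim12a, Trim5 and Trim30d are shown, with those of Trim12c and Trim30a, which are near copies of them. Similarity of the transcripts, which bears on how reads are divided between genes, was not measured. The sequences are those of RefSeq for GRCm38.p6, run from 250 bases before to 50 bases after the gene's start, and are read on the minus strand. Capitals mark GAAA, any 2 bases and GAAA, on either strand, a core of the interferon-stimulated response element.
Trim12a (chr7:104315446-104315745): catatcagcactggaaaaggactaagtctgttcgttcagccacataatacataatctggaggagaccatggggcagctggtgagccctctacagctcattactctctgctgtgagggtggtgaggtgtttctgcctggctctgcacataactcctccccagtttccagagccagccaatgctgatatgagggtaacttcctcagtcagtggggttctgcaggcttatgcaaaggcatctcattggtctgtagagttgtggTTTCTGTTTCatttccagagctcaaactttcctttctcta
Trim5 (chr7:104288057-104288356): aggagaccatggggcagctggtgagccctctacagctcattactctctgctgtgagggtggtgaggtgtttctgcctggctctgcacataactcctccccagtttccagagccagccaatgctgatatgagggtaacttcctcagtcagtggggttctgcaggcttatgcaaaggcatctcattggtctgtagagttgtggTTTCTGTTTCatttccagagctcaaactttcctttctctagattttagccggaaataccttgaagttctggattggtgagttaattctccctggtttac
Trim12c (chr7:104353300-104353599): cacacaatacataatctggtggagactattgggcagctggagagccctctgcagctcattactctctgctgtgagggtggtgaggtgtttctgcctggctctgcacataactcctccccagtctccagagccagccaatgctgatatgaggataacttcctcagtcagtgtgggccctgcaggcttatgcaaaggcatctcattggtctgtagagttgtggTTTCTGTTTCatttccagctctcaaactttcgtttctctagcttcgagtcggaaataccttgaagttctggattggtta
Trim30d (chr7:104507800-104508099): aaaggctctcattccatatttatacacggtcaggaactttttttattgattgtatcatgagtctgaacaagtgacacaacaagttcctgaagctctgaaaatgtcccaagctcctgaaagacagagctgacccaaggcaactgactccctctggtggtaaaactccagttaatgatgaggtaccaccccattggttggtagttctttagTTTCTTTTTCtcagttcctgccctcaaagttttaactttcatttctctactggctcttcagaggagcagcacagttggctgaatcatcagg
Trim30a (chr7:104465144-104465443): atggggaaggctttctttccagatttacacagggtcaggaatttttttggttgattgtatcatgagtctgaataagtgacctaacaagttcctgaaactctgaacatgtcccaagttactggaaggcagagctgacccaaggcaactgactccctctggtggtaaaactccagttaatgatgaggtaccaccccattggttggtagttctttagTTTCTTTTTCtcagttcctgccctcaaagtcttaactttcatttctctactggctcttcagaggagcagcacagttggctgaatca

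The Trim12a and Trim5 promoters were identical over the 241 aligned bases they share, and Trim12c matched Trim12a at 94.6% of 261 aligned bases. Trim30d and Trim30a matched at 93.9% of 294. All 5 windows hold the marked motif, which was present in 3.44% of the 32851 promoters of the table and in 46.2% of the 26 promoters of interferon-stimulated genes. None of the 5 holds the E-box CACGTG on either strand, which was in 7.15% of all promoters. The motif was thus present in promoters of cluster genes that differed between DKO and MAX_KO and of cluster genes that did not pass the test.

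Trim12a was at 0.441 and 0.834 RPM in MAX_KO and at 82.8 and 41.0 RPM in DKO, with 50.6 and 24.9 RPM in HET and 91.4 and 50.9 RPM in MYC_KO. It rose by 6.52 on the log2 scale (SE 0.481, 95% interval 5.42 to 7.62, adjusted p = 0.00456 by limma), and its levels in DKO lay within the range of HET and MYC_KO. Trim30d was at 0.537 and 0.732 RPM in MAX_KO and at 77.6 and 30.8 RPM in DKO, with 32.1 and 20.6 RPM in HET and 90.5 and 46.4 RPM in MYC_KO. It rose by 6.22 (SE 0.466, adjusted p = 0.00456 by limma). Trim5, whose primate counterpart restricts retroviral capsids, was at 0.764 and 1.39 RPM in MAX_KO and at 28.8 and 13.8 RPM in DKO, with 21.7 and 13.1 RPM in HET and 41.1 and 23.3 RPM in MYC_KO. It rose by 4.24 (SE 0.454, adjusted p = 0.0292 by limma).

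All 3 genes were higher in replicate 1 than in replicate 2 of HET, MYC_KO and DKO, and low in both MAX_KO libraries. Within the titles of the 30s the log2 change of Trim12a was 7.47 and within those of the 40s it was 5.57, and for Trim30d these were 7.10 and 5.34. Without DKO replicate 1, Trim12a (adjusted p = 0.0150) and Trim30d (adjusted p = 0.00899) remained called. Trim5 lost its call without DKO replicate 1 (adjusted p = 0.0624), without MAX_KO replicate 1 (adjusted p = 0.113) and without either HET library (adjusted p = 0.131 without replicate 1 and 0.122 without replicate 2). MYC_KO against HET did not call Trim12a (log2 change 0.94, adjusted p = 0.144), called Trim30d (1.33, adjusted p = 0.0461) and did not call Trim5 (0.87, adjusted p = 0.151).

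The cluster was not uniform. From Trim6 to Trim30d, 11 genes were tested, of which 3 were called higher and 8, these included, were higher at an unadjusted p under 0.05, beside 3.80% of all genes. Trim34a was at 15.7 and 28.3 RPM in MAX_KO and at 123 and 65.7 RPM in DKO (log2 change 2.09, adjusted p = 0.144 by limma), and Trim30b had 1.56 and 2.63 RPM in MAX_KO and 13.7 and 9.24 RPM in DKO (2.46, adjusted p = 0.144 by limma). Trim12c, by contrast, was at 104 and 121 RPM in MAX_KO and at 122 and 103 RPM in DKO (95% interval of the log2 change -0.30 to 0.30), and Trim30a, a regulator of Toll-like receptor signalling in mice, was at 176 and 190 RPM in MAX_KO and at 229 and 206 RPM in DKO (log2 change 0.24). The low values of Trim12a and Trim30d in MAX_KO thus stood beside high values of Trim12c and Trim30a, genes with near-copy promoters, in the same libraries. Trim34b and Trim30c were lower in DKO in value, with log2 changes of -1.95 and -0.33 that did not pass the test. Trim34b was at 9.53 and 13.9 RPM in MAX_KO and at 1.07 and 8.07 RPM in DKO. HET had 0.25 and 3.21 RPM and MYC_KO had 0.804 and 6.9 RPM. Trim34b was thus highest in MAX_KO and lower in replicate 1 of HET, MYC_KO and DKO, the reverse of Trim12a, Trim30d and Trim5. Whether a difference between libraries other than the Myc genotype bears on the cluster was not tested.

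Outside the cluster, 33 genes within 2500 kb of the start of Trim12a were tested, and 3 of them had an unadjusted p under 0.05, beside 6.05% of all genes. These were Rhog, lower with a log2 change of -0.22, Olfr613, higher with one of 0.46, and Gvin1, also higher. Gvin1 encodes a very large interferon-inducible GTPase and was at 67.6 and 75.4 RPM in MAX_KO and at 863 and 327 RPM in DKO, with 251 and 176 RPM in HET and 1276 and 476 RPM in MYC_KO. Its log2 change was 2.90 (SE 0.514, adjusted p = 0.160 by limma; adjusted p under 0.05 with the series term). As in the Trim genes, MAX_KO was lowest and replicate 1 was above replicate 2 in the other groups.

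**Figure D3:**
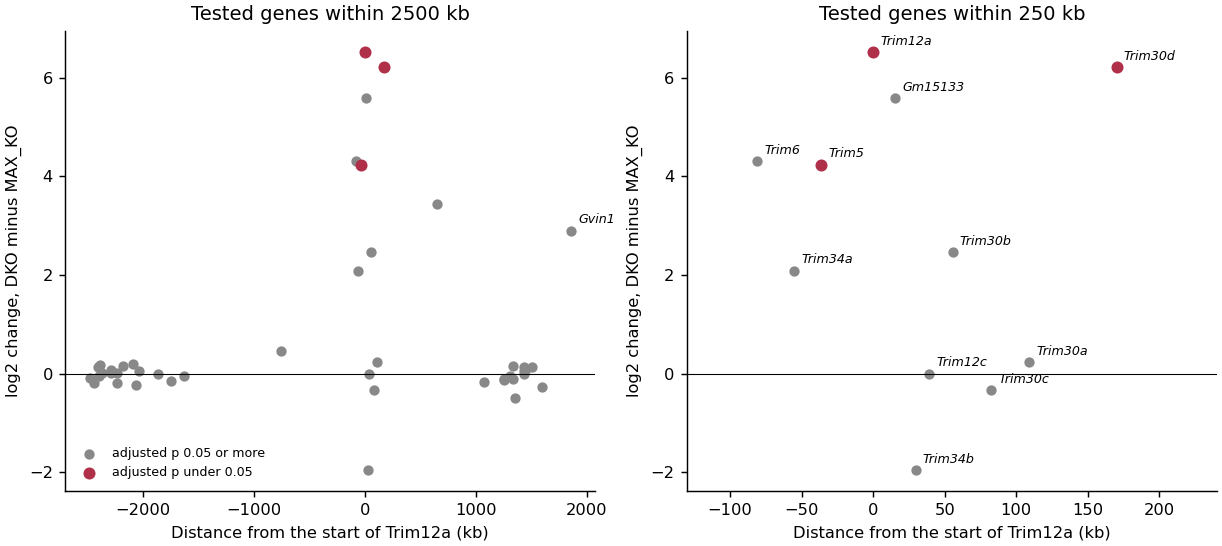
The log2 change in DKO against MAX_KO of each tested gene, by its distance in kb from the start of Trim12a, within 2500 kb (left) and within 250 kb (right), with genes called by limma in red. Trim12a, Trim30d and Trim5 stand between 4.24 and 6.52, while Trim12c at -0.00 and Trim30a at 0.24 lie between them.

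The fifth called gene, Jchain, encodes the joining chain of secreted polymeric IgM and IgA and is a transcript of plasma cells and their precursors. It was at 37.3 and 35.4 RPM in MAX_KO and at 137 and 261 RPM in DKO, with 210 and 255 RPM in HET and 281 and 260 RPM in MYC_KO. The MAX_KO libraries were apart from the 6 others, and DKO replicate 1 was the lowest of those 6. Jchain rose by 2.38 (SE 0.25, 95% interval 1.8 to 2.95, 5.2-fold, adjusted p = 0.0292 by limma), and its change differed from that in MYC_KO against HET, which was 0.22, by 2.15 (adjusted p = 0.00418). The rise was 1.88 within the titles of the 30s and 2.88 within those of the 40s. Without DKO replicate 1 it was 2.84 (adjusted p = 0.00106). The call was lost without MAX_KO replicate 1 (adjusted p = 0.113) and without either HET library (adjusted p = 0.131 without replicate 1 and 0.122 without replicate 2).
Jchain promoter, RefSeq, GRCm38.p6 (chr5:88527848-88528147, minus strand): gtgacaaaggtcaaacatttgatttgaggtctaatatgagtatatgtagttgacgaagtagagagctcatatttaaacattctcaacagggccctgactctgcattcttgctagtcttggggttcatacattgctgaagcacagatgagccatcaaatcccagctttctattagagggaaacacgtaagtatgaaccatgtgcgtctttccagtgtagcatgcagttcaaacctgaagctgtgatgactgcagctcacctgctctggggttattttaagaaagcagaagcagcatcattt
This window holds neither CACGTG nor the interferon response motif.

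Other plasma cell genes pointed the same way in value without passing the test over all genes. Of 17 tested regulators and markers of plasma cells, Jchain was called, and 11 were higher and 0 lower at an unadjusted p under 0.05, beside 3.80% and 2.25% of all genes. The median log2 change of the list was 0.43, beside 0.00 for all genes tested, and it was 0.06 in MYC_KO against HET. Sdc1, the surface proteoglycan used to recognise plasma cells, was at 2.94 and 3.02 RPM in MAX_KO and at 8.83 and 16.5 RPM in DKO, with 5.98 and 5.94 RPM in HET (log2 change 2.01, SE 0.354, adjusted p = 0.160 by limma, and 0.0293 with the series term). Prdm1 was at 18.5 and 35.1 RPM in MAX_KO and at 37 and 65.2 RPM in DKO (0.94, SE 0.355, adjusted p = 0.712, and 0.0174 with the series term). In each group with 1 library of each series, that is MAX_KO, DKO and MYC_KO, Prdm1 was higher in the library of the 40s.

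Xbp1, the transcription factor of the unfolded protein response that secretory cells need, was at 310 and 225 RPM in MAX_KO and at 375 and 417 RPM in DKO, and stayed below the 793 and 680 RPM of HET. Fkbp11, an isomerase of the endoplasmic reticulum, was at 3.06 and 2.51 RPM in MAX_KO and at 5.87 and 9.82 RPM in DKO. Mzb1, a chaperone of immunoglobulin assembly, was at 382 and 378 RPM in MAX_KO and at 441 and 554 RPM in DKO. Their log2 changes were 0.58, 1.44 and 0.38, and none was called. For these 3 genes both DKO libraries were above both MAX_KO libraries, as for 16.2% of all genes tested, and DKO lay between MAX_KO and HET except for Fkbp11 in DKO replicate 2, which was inside the HET range of 9.34 to 10.6 RPM. Irf4, Slamf7, Ell2 and Zbtb20, also genes of plasma cells, had log2 changes of 0.02, -0.02, 0.16 and -0.12.

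The count moved most with DKO replicate 2. Without DKO replicate 2, 5 members of the plasma cell list had an unadjusted p under 0.05, without DKO replicate 1 there were 12, and with the groups of the descriptions also 12. The summed level of the 18 members in the table was 9127 and 8781 RPM in MAX_KO, 10612 and 13173 RPM in DKO and 13591 and 13544 RPM in HET. Most of each sum was Ighm, a member of the list, at 7126 and 6889 RPM in MAX_KO and 8336 and 10208 RPM in DKO. The sums therefore say little about the other members. The summed level of 24 B cell identity genes was 11721 and 12732 RPM in MAX_KO and 11984 and 11543 RPM in DKO, so that the 2 groups overlapped. In bulk libraries, more cells of a type and more RNA of these genes per cell cannot be told apart.

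**Figure D4:**
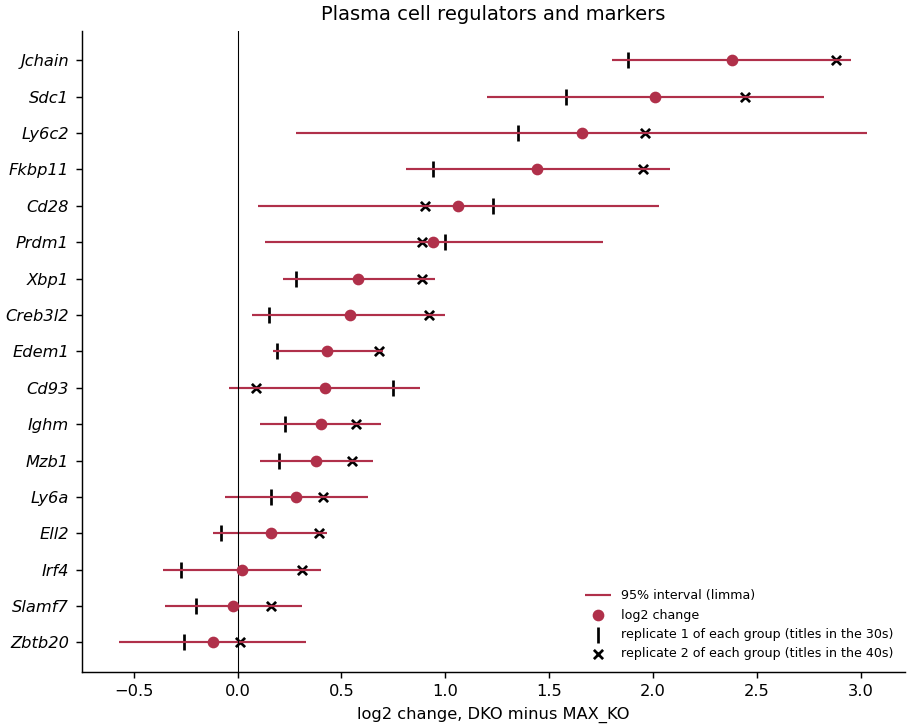
The log2 change in DKO against MAX_KO of the 17 tested plasma cell genes, with the 95% interval of limma (line) and the change within the titles of the 30s (bar) and of the 40s (cross). Jchain is the gene called, at 2.38, and the cross lies to the right of the bar for all but Cd28, Prdm1 and Cd93.

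Immunoglobulin transcripts, listed after their values were seen, showed values in the same direction. Of 12 constant region genes tested, 7 were higher and 0 lower at an unadjusted p under 0.05, and of 181 variable segments 56 were higher and 0 lower, beside 3.80% and 2.25% of all genes, each list with a median log2 change of 0.48 and 0 members called. Ighm, also counted in the plasma cell list above, was at 7126 and 6889 RPM in MAX_KO and at 8336 and 10208 RPM in DKO, with 10500 and 10330 RPM in HET. Ighg3 was at 23.6 and 27.3 RPM in MAX_KO and at 51.5 and 95 RPM in DKO (log2 change 1.46, adjusted p = 0.144 by limma, and under 0.05 with the series term). Igha was at 2.94 and 3.30 RPM in MAX_KO and at 17.3 and 4.83 RPM in DKO, with most of its difference in DKO replicate 1. Reads of variable segments are divided among similar copies, so that single segments are uncertain.

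Fewer than 10 genes were called higher, so that those next in order of p that met the level rule and did not overlap between groups were also described. Bhlha15, a transcription factor of secretory cells, was at 6.11 and 5.47 RPM in MAX_KO and at 14 and 22 RPM in DKO, with 19.4 and 18.4 RPM in HET (log2 change 1.6, adjusted p = 0.118 by limma). Eaf2, a partner of the elongation factor Ell, was at 10.1 and 11.9 RPM in MAX_KO and at 21.5 and 26.3 RPM in DKO (1.12, adjusted p = 0.118 by limma). Lman1, a cargo receptor between endoplasmic reticulum and Golgi, was at 72.7 and 70.3 RPM in MAX_KO and at 101 and 113 RPM in DKO (0.58, adjusted p = 0.127 by limma). The 3 genes were chosen for groups that do not overlap, and the 2 DKO levels of Bhlha15 and of Eaf2 lay on both sides of the HET levels.

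Bcat1, a branched-chain aminotransferase, was at 3.61 and 4.13 RPM in MAX_KO and at 10.5 and 15.8 RPM in DKO, with 13.7 and 10.2 RPM in HET (log2 change 1.73, adjusted p = 0.127 by limma). Cpeb3, a regulator of messenger RNA polyadenylation and translation, was at 1.78 and 2.12 RPM in MAX_KO and at 6.48 and 13.5 RPM in DKO (2.25, adjusted p = 0.127 by limma). With the groups of the descriptions, which put MYC_KO replicate 2 into DKO, Bhlha15, Eaf2, Bcat1 and Cpeb3 were called (adjusted p = 0.0137 for Bhlha15 by limma). Lman1 was not.

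On the lower side Myc was the one gene called, and the genes next in order of p under the same rule, which leaves out predicted genes, are given as values. Sirpa, an inhibitory receptor, was at 29.5 and 27.8 RPM in MAX_KO and at 16.5 and 14.8 RPM in DKO, with 13.5 and 11.0 RPM in HET (log2 change -0.87, adjusted p = 0.160 by limma). The costimulatory ligand Cd86 was at 143 and 138 RPM in MAX_KO and at 84.1 and 104 RPM in DKO (-0.59, adjusted p = 0.160 by limma), and the semaphorin Sema7a at 130 and 106 RPM in MAX_KO and at 69.4 and 73.4 RPM in DKO (-0.72, adjusted p = 0.160 by limma). Cd86 and Sema7a fell in MYC_KO against HET, with log2 changes of -0.82 and -0.80, close to those without Max. The difference of the 2 changes was 0.23 for Cd86 (adjusted p = 0.271) and 0.09 for Sema7a (adjusted p = 0.750).

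Sema4a (log2 change -0.63), the calcium-binding protein gene Efhd2 (-0.42), the prosaposin gene Psap (-0.48), the integrin gene Itgb7 (-0.66) and Itm2c (-0.44) were also lower in value and uncalled. Sema4a and Efhd2 fell in MYC_KO against HET by 0.76 and 0.54, whereas Itgb7 rose there by 0.66 and its 2 changes differed (adjusted p = 0.00252). Cygb, the gene of cytoglobin, was at 49.8 and 23.1 RPM in MAX_KO and at 10.6 and 11.1 RPM in DKO, a log2 change of -1.64 (adjusted p = 0.193 by limma) with MAX_KO replicate 1 above replicate 2.

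Genes long described as induced by Myc had no member called in DKO against MAX_KO. Of 30 such genes, 9 were higher and 0 lower at an unadjusted p under 0.05, beside 3.80% and 2.25% of all genes, with a median log2 change of 0.19. In MYC_KO against HET, 18 of the 30 fell and 1 rose, beside 21.4% and 24.0% of all genes, with a median of -0.55. Npm1, a nucleolar protein, was at 749 and 776 RPM in MAX_KO and at 809 and 940 RPM in DKO, against 1417 and 1221 RPM in HET and 674 and 689 RPM in MYC_KO. Srm, the spermidine synthase gene, was at 68.1 and 68.8 RPM in MAX_KO and at 85.3 and 91.9 RPM in DKO, against 139 and 110 RPM in HET and 54.2 and 66.1 RPM in MYC_KO. For both genes, the DKO libraries lay above the MAX_KO libraries, as for 16.2% of all genes tested. The 95% interval of the log2 change was -0.04 to 0.43 for Npm1 and 0.06 to 0.68 for Srm.

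Cad, which starts pyrimidine synthesis, was at 184 and 174 RPM in MAX_KO and at 218 and 246 RPM in DKO (log2 change 0.37). Odc1, the ornithine decarboxylase gene, was at 123 and 163 RPM in MAX_KO and at 170 and 236 RPM in DKO (0.50, and called only with the series term). Ccnd2, a G1 cyclin gene, rose in MYC_KO against HET by 1.38 and was at 1472 and 1600 RPM in MAX_KO and 1557 and 1531 RPM in DKO. Ncl, the nucleolin gene, had 916 and 1010 RPM in MAX_KO and 1036 and 1231 RPM in DKO. The list counts moved with single libraries, since 2 of the 30 were higher at an unadjusted p under 0.05 without DKO replicate 2, 3 without MAX_KO replicate 2, and 1 with the groups of the descriptions.

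Serine and one-carbon genes had the same direction in value. The lists of Myc-induced, one-carbon and nucleotide synthesis genes share members, among them Cad, Nme1, Shmt1 and Shmt2. Their counts are therefore not independent. Of 19 tested genes of amino acid transport and one-carbon metabolism, 0 were called, and 9 were higher and 0 lower at an unadjusted p under 0.05 (3.80% and 2.25% of all genes), with a median log2 change of 0.29 against -0.24 in MYC_KO against HET. Phgdh, which commits glucose carbon to serine synthesis, was at 98.3 and 113 RPM in MAX_KO and at 156 and 209 RPM in DKO, with 257 and 235 RPM in HET and 148 and 145 RPM in MYC_KO (log2 change 0.77, adjusted p = 0.160 by limma, and 0.0408 with the series term). Psat1, the next enzyme of the route, was at 112 and 110 RPM in MAX_KO and at 140 and 160 RPM in DKO (0.43). Asns, the asparagine synthetase gene, was at 39.1 and 33.8 RPM in MAX_KO and at 43.2 and 72.4 RPM in DKO (0.62), with nearly all of the difference in DKO replicate 2. Without DKO replicate 2, 4 of the 19 were higher at that threshold, and with the groups of the descriptions also 4.

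Of 24 nucleotide synthesis genes 6 were higher and 0 lower at an unadjusted p under 0.05 (median 0.13), and of 25 DNA replication genes 6 were higher and 0 lower (median 0.12), beside 3.80% and 2.25% of all genes, with 0 called in either list. Umps, of pyrimidine synthesis, had a log2 change of 0.38 and Mcm2, of the replicative helicase, one of 0.25. Without DKO replicate 1 the count of nucleotide synthesis genes was 3, without MAX_KO replicate 2 it was 1, and with the groups of the descriptions it was 0. Among 25 mitotic genes 0 passed either threshold (median 0.02), and among 28 ribosome biogenesis genes 2 were higher at an unadjusted p under 0.05, Nop2 and Ddx21 (median 0.15).

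The gene groups that fell most on Myc loss with Max present showed small changes without Max. All 32 cytosolic ribosomal protein genes tested fell in MYC_KO against HET (median log2 change -1.21), beside 21.4% of all genes. In DKO against MAX_KO 0 of the 32 passed an unadjusted p under 0.05, and their changes ran from -0.18 to 0.08 (median -0.06). The difference of the 2 effects was called for all 32, with the change higher without Max, as for 12.3% of all genes. Rps3 was at 1401 and 1353 RPM in MAX_KO, at 1291 and 1250 RPM in DKO, at 2616 and 2482 RPM in HET and at 1039 and 1047 RPM in MYC_KO. Its 95% interval in DKO against MAX_KO was -0.29 to 0.06. The 13 messenger RNAs of mitochondrial DNA fell in MYC_KO against HET (median -1.28) and had a median of -0.20 without Max, where 0 were called and 3 were lower at an unadjusted p under 0.05 (2.25% of all genes), with mt-Nd6 at 475 and 456 RPM in MAX_KO and at 330 and 398 RPM in DKO.

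Glycolysis and hypoxia genes had medians of -0.29 and -0.36 in DKO against MAX_KO, compared with -1.98 and -2.23 in MYC_KO against HET. Of 20 glycolysis genes, 0 were called without Max and 19 fell with Max, beside 21.4% of all genes. The values without Max split between the 2 MAX_KO libraries. Tpi1, a glycolytic isomerase gene, was at 908 and 468 RPM in MAX_KO and at 449 and 471 RPM in DKO, against 1371 and 1317 RPM in HET. Bnip3, a mitophagy receptor induced by low oxygen, was at 138 and 48.5 RPM in MAX_KO and at 46.7 and 43.8 RPM in DKO. In both genes MAX_KO replicate 1 was high and MAX_KO replicate 2 lay close to the DKO libraries. Without MAX_KO replicate 2, 24 genes were called, 9 higher and 15 lower, and the lower ones held Tpi1, Bnip3, Pgk1, Hk2, Aldoc and Ak4. Without MAX_KO replicate 1, 6 genes were called and none of these was among them.

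One transport gene in the glycolysis list went the other way in value. Slc16a1, a lactate and pyruvate carrier, was at 30.1 and 23.6 RPM in MAX_KO and at 42.6 and 62.9 RPM in DKO (log2 change 0.96, adjusted p = 0.227 by limma), while HET had 44.2 and 45.8 RPM. Of 21 cholesterol synthesis genes 0 were called and 2 were lower at an unadjusted p under 0.05, Mvk and Mvd, beside 2.25% of all genes. The median of the list was -0.10, and -0.87 in MYC_KO against HET. Of 22 genes of RNA polymerase III and its factors, for which a Max-independent action of Myc has been described in flies, 0 passed either threshold, and their log2 changes ran from -0.21 to 0.29 (median 0.01). Of 15 genes of RNA polymerase I and its factors 1 was higher at an unadjusted p under 0.05, beside 3.80% of all genes. It was Polr1b, at 38.2 and 33.6 RPM in MAX_KO and at 43.5 and 45.9 RPM in DKO.

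**Figure D5:**
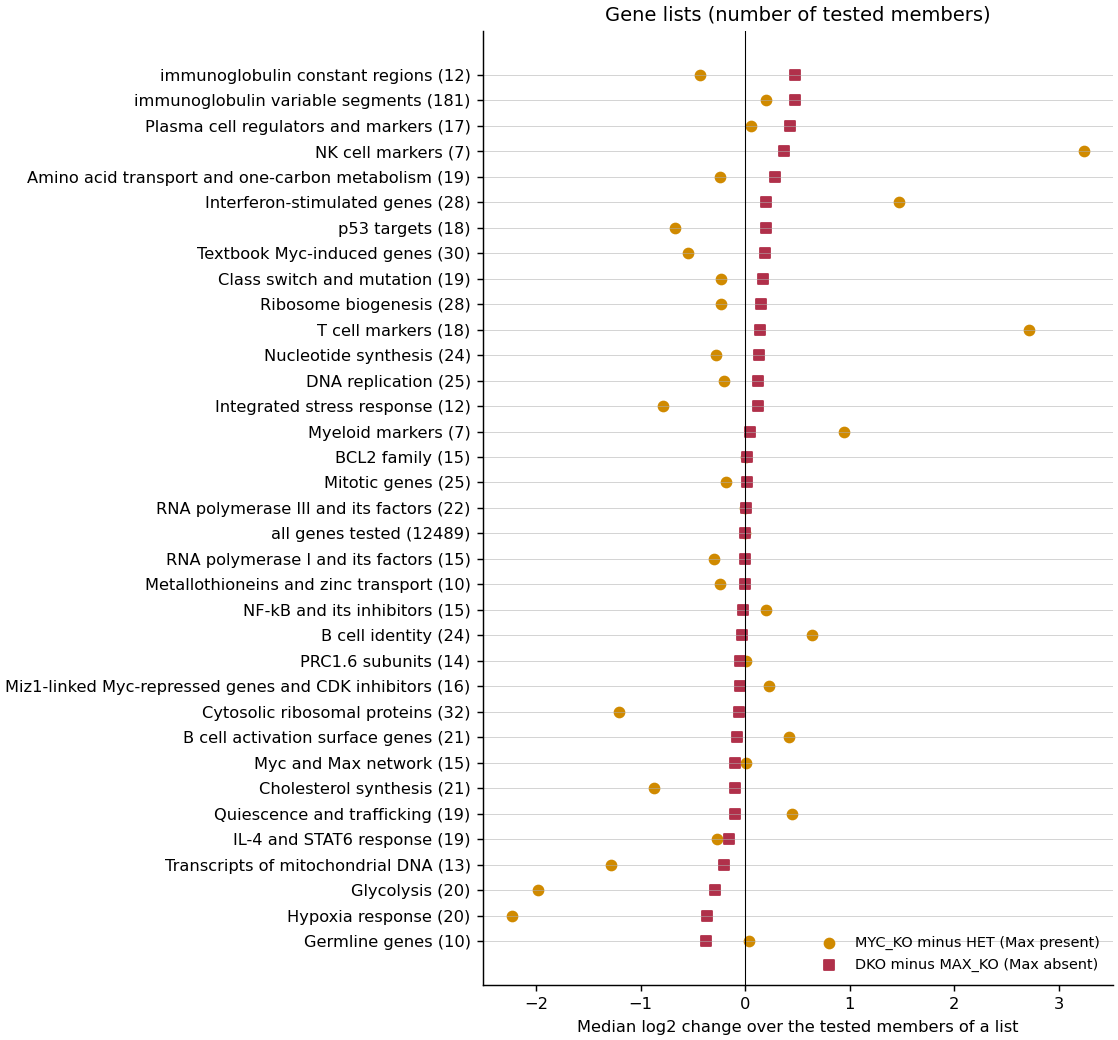
Median log2 change over the tested members of the gene lists and over all genes tested (number in parentheses). Circles give MYC_KO against HET and squares give DKO against MAX_KO. The stromal, the erythroid and platelet, and the dendritic and plasmacytoid lists are left out. The squares lie between -0.37 and 0.48, whereas the circles run from -2.23 for the hypoxia response to 3.24 for NK cell markers.

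Genes that Myc represses through its partner Miz1, and inhibitors of cyclin-dependent kinases, had 0 of 16 called. Cdkn2b was at 0.722 and 1.34 RPM in MAX_KO and at 1.73 and 4.06 RPM in DKO (log2 change 1.40), and Cdkn2a at 3.72 and 4.75 RPM in MAX_KO and 5.92 and 11.5 RPM in DKO (0.97). Klf2, a quiescence factor, was at 236 and 160 RPM in MAX_KO and at 122 and 139 RPM in DKO (-0.58). None of the 3 was called, and the median of the list was -0.05. The p53 targets (18 tested) had 2 members higher and the BCL2 family (15 tested) had 2 higher and 1 lower at an unadjusted p under 0.05. Over all genes tested, 3.80% were higher and 2.25% lower at that threshold. Pmaip1, a death-promoting member of both lists, was at 12.3 and 28.3 RPM in MAX_KO and at 29.8 and 43.3 RPM in DKO.

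Of 28 interferon-stimulated genes, 27 rose in MYC_KO against HET, beside 24.0% of all genes. Without Max 0 were called, and 4 were higher and 1 lower at an unadjusted p under 0.05, beside 3.80% and 2.25% of all genes (median 0.20). Gbp2, an interferon-induced GTPase, was at 565 and 738 RPM in MAX_KO and at 447 and 333 RPM in DKO, whereas Oasl2 was at 2.11 and 6.93 RPM in MAX_KO and at 38.6 and 8.01 RPM in DKO. Of 24 B cell identity genes tested, 14 rose with Max, beside 24.0% of all genes, and 0 were called without it (median -0.03). The lists of class switch and mutation (median 0.17), activation surface genes (-0.08), the interleukin 4 response (-0.15) and NF-kB and its inhibitors (-0.02) likewise had 0 called. So did quiescence and trafficking (-0.10), the integrated stress response (0.12), metallothioneins and zinc transport (0.00) and PRC1.6 subunits (-0.05). Icosl, a costimulatory ligand, was at 9.06 and 12.3 RPM in MAX_KO and at 25.9 and 19.7 RPM in DKO (log2 change 1.10), and Mt1, a metallothionein, at 2.44 and 1.90 RPM in MAX_KO and at 3.24 and 5.87 RPM in DKO (1.01).

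Germline genes, which Max represses together with Mga in other mouse cells, were in part high in the MAX_KO libraries. Of 10 tested, 0 were called and 4 were lower in DKO at an unadjusted p under 0.05, beside 2.25% of all genes (median -0.37). Stag3, a meiotic cohesin subunit, was at 113 and 140 RPM in MAX_KO and at 73.9 and 93.4 RPM in DKO, against 22.2 and 19.4 RPM in HET and 4.83 and 6.04 RPM in MYC_KO. Both DKO libraries thus lay below MAX_KO, as for 15.4% of all genes tested, and far above HET. The log2 change was -0.60 (adjusted p = 0.539 by limma). Max transcripts, given above, were higher in DKO than in MAX_KO, and their part in these values was not tested.

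Some of the genes with the largest changes in MYC_KO against HET were followed one by one. Gzmb, a cytotoxic granule protease, was at 2.18 and 1.21 RPM in HET and at 127 and 79.7 RPM in MYC_KO, but at 25.2 and 53.8 RPM in MAX_KO and at 53.8 and 74.6 RPM in DKO. Gfi1b, a transcriptional repressor of blood cells, was at 0.0622 and 0.121 RPM in HET, 11.6 and 9.19 RPM in MYC_KO, 2.56 and 3.18 RPM in MAX_KO and 6.04 and 3.02 RPM in DKO. For both genes, the MAX_KO libraries were already above HET, and the change on Myc loss without Max was 0.78 for Gzmb and 0.58 for Gfi1b, neither called. In the opposite direction, Ak4, an adenylate kinase of mitochondria, was at 46.1 and 43.8 RPM in HET and at 0.522 and 0.534 RPM in MYC_KO, and at 32.5 and 4.08 RPM in MAX_KO and 6.76 and 5.87 RPM in DKO, so that the DKO libraries fell between the 2 MAX_KO libraries.

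The E-box CACGTG, searched on both strands of the RefSeq windows, was in 10.2% of the 11848 promoters of tested genes. It was in 10% of the promoters of genes that rose and in 10.9% of those that fell in MYC_KO against HET. In DKO against MAX_KO it was in 8.99% of the promoters of genes higher at an unadjusted p under 0.05 and in 10.8% of those lower. These shares describe the letters in the windows and carry no test.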

How the data were processed

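The authors deposited 1 table of log2 values for 15681 genes in 8 libraries, normalized by their own procedure, which the sources used here do not name. Per the submitters' processing notes, CASAVA 1.8, cutadapt, RSEM 1.2.3 and the genome build GRCm38 were used, and the annotation, strand setting and filters are not given there. RSEM divides reads of near-identical genes by an estimate. The values behave as log2 RPM of the estimated reads plus 0.5, on an effective library size, which let reads and RPM be recovered, with all values multiples of 0.01 read within 0.0002. The reads are not whole, so that no count test was run. Totals were 14.88 to 17.91 M.

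The deposited log2 values were fitted as they are, for the 12489 genes at 0 or more in at least 2 libraries, in 1 model of the 4 groups by title by lmFit and trended eBayes of limma 3.58.1, run in R 4.3.3, with 4 residual and 4.2 prior degrees of freedom. The p-values are two-sided, the Benjamini-Hochberg adjustment covered all 12489 genes, and the threshold was 0.05. The contrasts were DKO minus MAX_KO, MYC_KO minus HET, and the first minus the second. The fit was checked on simulated data. Python 3.11.15 with pandas 2.3.3, scipy 1.17.1, Biopython 1.88 and matplotlib 3.10.9 recovered reads, compared promoters and drew the figures. Gene names came from the GENCODE annotation of GRCm38 by identifier, for 15622 genes.

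Deviations from the group means correlated between libraries of the same title series (30s or 40s), at 0.36 between MYC_KO and MAX_KO, 0.32 between MYC_KO and DKO and 0.37 between MAX_KO and DKO. The pairing comes from the title numbers, which the labels do not explain. The fit with it as a term is given where it changes the call of a gene named here, and for the counts of called genes.

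Genes and lists were chosen with earlier results of these data known. Named genes were the Myc and Max network, then the called genes (or, where fewer than 10 were called in a direction, those with the lowest p) that had at least 5 RPM and no overlap between groups, then up to 3 genes of each list with the lowest p, and the 5 highest and 5 lowest changes of the other contrasts. Predicted genes and receptor segments were left out. Part of these is given, and some items are not reported here. Immunoglobulin lists, chromosome 7 neighbours, Gvin1, Tpi1, Pgk1, Hk2 and members given beside the rule were picked with their values known. Lists are described by counts and medians, with no test.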

Additional observations from a re-analysis of the deposited data

Results flagged for a closer look

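The effect of Myc loss without Max differed from that with Max, by the test of the difference itself, at 3406 genes. Among the genes called in DKO against MAX_KO, the change without Max minus the change with Max was 5.58 for Trim12a, 4.89 for Trim30d, 3.37 for Trim5, 2.15 for Jchain and -0.86 for Myc, all on the log2 scale. In the Myc and Max network it was 0.66 for Max, 1.62 for Mxd1, 1.77 for Mxi1, -1.05 for Mga, -1.29 for Mycbp2 and -0.40 for Trrap. Mxd1 and Mxi1, which encode Max-binding repressors, fell in MYC_KO against HET, whereas Mga, Mycbp2 and Trrap rose there, and none of these 5 was called in DKO against MAX_KO. Of the uncalled genes that were higher in DKO in value, the difference was 0.81 for Eaf2, 1.89 for Bhlha15 and 1.92 for Bcat1. Of those that were lower in value, it was -0.74 for Sirpa and -1.32 for Itgb7.

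Among further named genes, those that rose with Max had differences of -5.14 for Gzmb, -4.56 for Gzma and -4.72 for Nkg7, which encode proteins of cytotoxic granules, and of -5.86 for Gfi1b, -5.73 for Met, -5.67 for Ifi44 and -5.60 for Iigp1. Gzmb, Gzma and Nkg7 belong to the NK cell marker list above. Genes that fell with Max had differences of 5.46 for Ak4, 6.07 for Vldlr, 6.48 for Rgs11 and 6.98 for Mgarp. Rgs11 was at 22.6 and 25.9 RPM in HET, at 0 and 0.214 RPM in MYC_KO, at 9.89 and 2.73 RPM in MAX_KO and at 1.01 and 2.80 RPM in DKO, so that the last 2 groups overlapped. Met, a growth factor receptor gene, was at 0 and 0.0606 RPM in HET, at 3 and 5.56 RPM in MYC_KO, at 5.67 and 8.99 RPM in MAX_KO and at 11.6 and 9.43 RPM in DKO, and its DKO levels were the highest of the 8 libraries. A difference of this kind can arise from the levels in any of the 4 groups, and it was not tested which.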

How the results depend on the processing

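The 5 genes called between DKO and MAX_KO were the same 5 under quantile, median-of-ratios and same-total scaling, with no filter and with a filter of 5 RPM in 2 libraries. The count was 1 (Myc) with log2(linear value + 5), 3 with the replicate numbers of the descriptions as a replicate block, 3 with robust eBayes and 3 at an adjusted p under 0.01. It was 0 without a mean-variance trend (749 genes at an unadjusted p under 0.05) and 0 with only the groups compared (630 at that threshold). It was 31 with the replicate block of the title series, 26 with the groups of the descriptions and 24 without the 2 libraries whose labels disagree. Leaving out 1 library gave 3 to 24 genes, with 3 without either HET library, 8 without MYC_KO replicate 2, 16 without DKO replicate 1 and 24 without MAX_KO replicate 2. In these fits a lone library was assumed to vary like the other groups. The cause of these shifts was not tested.

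Over all alternatives that gave a value, the adjusted p ran from 0.00138 to 0.142 for Myc, from 0.000701 to 0.0782 for Trim12a, from 0.000239 to 0.117 for Trim30d, from 0.0107 to 0.261 for Trim5 and from 0.00106 to 0.329 for Jchain, and none of the 5 changed sign. Of 1976 log2 changes of 90 named genes under the alternatives, 1921 stayed on their side of the threshold, 26 lost a call, 29 gained one and 0 changed direction with a call. Only the 5 genes called in the main fit could lose a call, so that all 26 losses fell on them. Most of the values that stayed belonged to genes that were not called in the main fit, so that the total does not measure how stable the 5 calls are.

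MYC_KO against HET gave 5671 genes, 3516 at an adjusted p under 0.01, 2072 with a 2-fold minimum and 3397 to 5612 with 1 library left out (3397 without HET replicate 1). With each library scaled to the same total, 3845 rose and 1945 fell, against 2994 and 2677, as the median of all genes moved by 0.15 on the log2 scale. With the series of the title numbers as a term, 6427 genes were called, of which 3393 rose and 3034 fell. Both HET libraries are in the 30s, so that series and genotype are not fully separate there. The difference of the 2 effects gave 3406 genes, 1440 at an adjusted p under 0.01, 1482 with a 2-fold minimum, 1294 with the replicate block of the descriptions and 1697 to 3325 with 1 library left out (1697 without HET replicate 1, 2147 without HET replicate 2, 2254 without MAX_KO replicate 2). With the same total it gave 1162 higher and 2470 lower, and with the series term 2137 higher and 2502 lower, 4639 in all. The counts of list members were put through the same alternatives after seeing the data and ran from 5 to 13 of 17 for plasma cell genes, from 1 to 15 of 30 for Myc-induced genes, from 4 to 11 of 19 for one-carbon genes and from 0 to 8 of 24 for nucleotide synthesis. What read depth limits was not tested, and each group holds 2 libraries.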
